A study of Mus musculus with 6 samples.

Results

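The mitochondrial ribosomal proteins were followed in cardiac muscle of sham and tail-suspended mice. They were taken as every gene on the array whose name begins with Mrpl (large subunit) or Mrps (small subunit) followed by a digit, read from the brightest probe of each gene over the 6 arrays. This gave 76 genes with 101 probes, of 36163 gene names with 55681 probes on the array. Total RNA came from 3 sham mice and 3 mice kept in tail-suspension for 28 days, a model in which the hindlimbs are unloaded and fluid shifts towards the head to simulate microgravity. All were male C57BL/6 mice, housed and fed alike, and no drug or transgene is named for them. By the labels the mice were 10 weeks old when tail-suspension began, although an age of 11 weeks is entered for each, while the methods describe adult males of another age. Each replicate had its own 1-colour Agilent array and was taken as a separate mouse, although the labels give only a replicate number.

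Mitochondria keep a small genome of their own and translate its few mRNAs, all for core subunits of the respiratory chain and ATP synthase, on a dedicated ribosome. The RNA of that ribosome is made inside the organelle, but every one of its proteins is encoded in the nucleus, made in the cytosol and imported. Heart muscle is rich in mitochondria, and inherited defects of several of these proteins cause cardiomyopathy in people.

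Of the 76 genes, 75 were tested, and all 75 were well above background on all 6 arrays. The exception was Mrpl21, a large subunit protein, whose only probe was not well above background on any array. After tail-suspension, 27 of the 75 transcripts were lower and 0 were higher at the 0.05 threshold of limma with Benjamini-Hochberg adjustment over all tested probes. Among all 20668 gene names tested, 9.8% were lower and 9.95% were higher by the same rule. The median log2 fold change over the 75 was -0.34, against -0.01 over all names tested, and 65 of the 75 values were below 0. The changes were small: 6 genes passed the threshold and were at least 1.5-fold lower, and 0 were at least 2-fold lower. At an unadjusted p under 0.05, limma gave 47 lower and 0 higher (19.3% and 18.4% of all names), and the methods' t-test gave 42 lower and 0 higher.

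The number called was sensitive to single arrays. It was 3 without sham replicate 1 (4.02% of all names lower), 0 without sham replicate 2 and 11 without tail-suspension replicate 1 (5.48%). It was 14 without tail-suspension replicate 2 (9.40%) and 3 without tail-suspension replicate 3 (3.59%). Tail-suspension replicate 1 shared row 1 of its slide with all 3 sham arrays, and the other tail-suspension arrays were in row 2. Row 2 held no sham array. With the slide row as a blocking term, or within row 1, the contrast was tail-suspension replicate 1 against the 3 sham arrays. The median over the members was -0.23 in both. Slide row and tail-suspension cannot be told apart for tail-suspension replicates 2 and 3. With an array left out the share of all names called lower also dropped, from 9.8% to 2.96% without sham replicate 2. The 3 of 75 members called without sham replicate 1 or without tail-suspension replicate 3 were near the share of all names. At an unadjusted p under 0.05, limma gave 29 members lower and 0 higher without sham replicate 2. The corresponding share of all names lower was 13.8%.

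**Figure D1:**
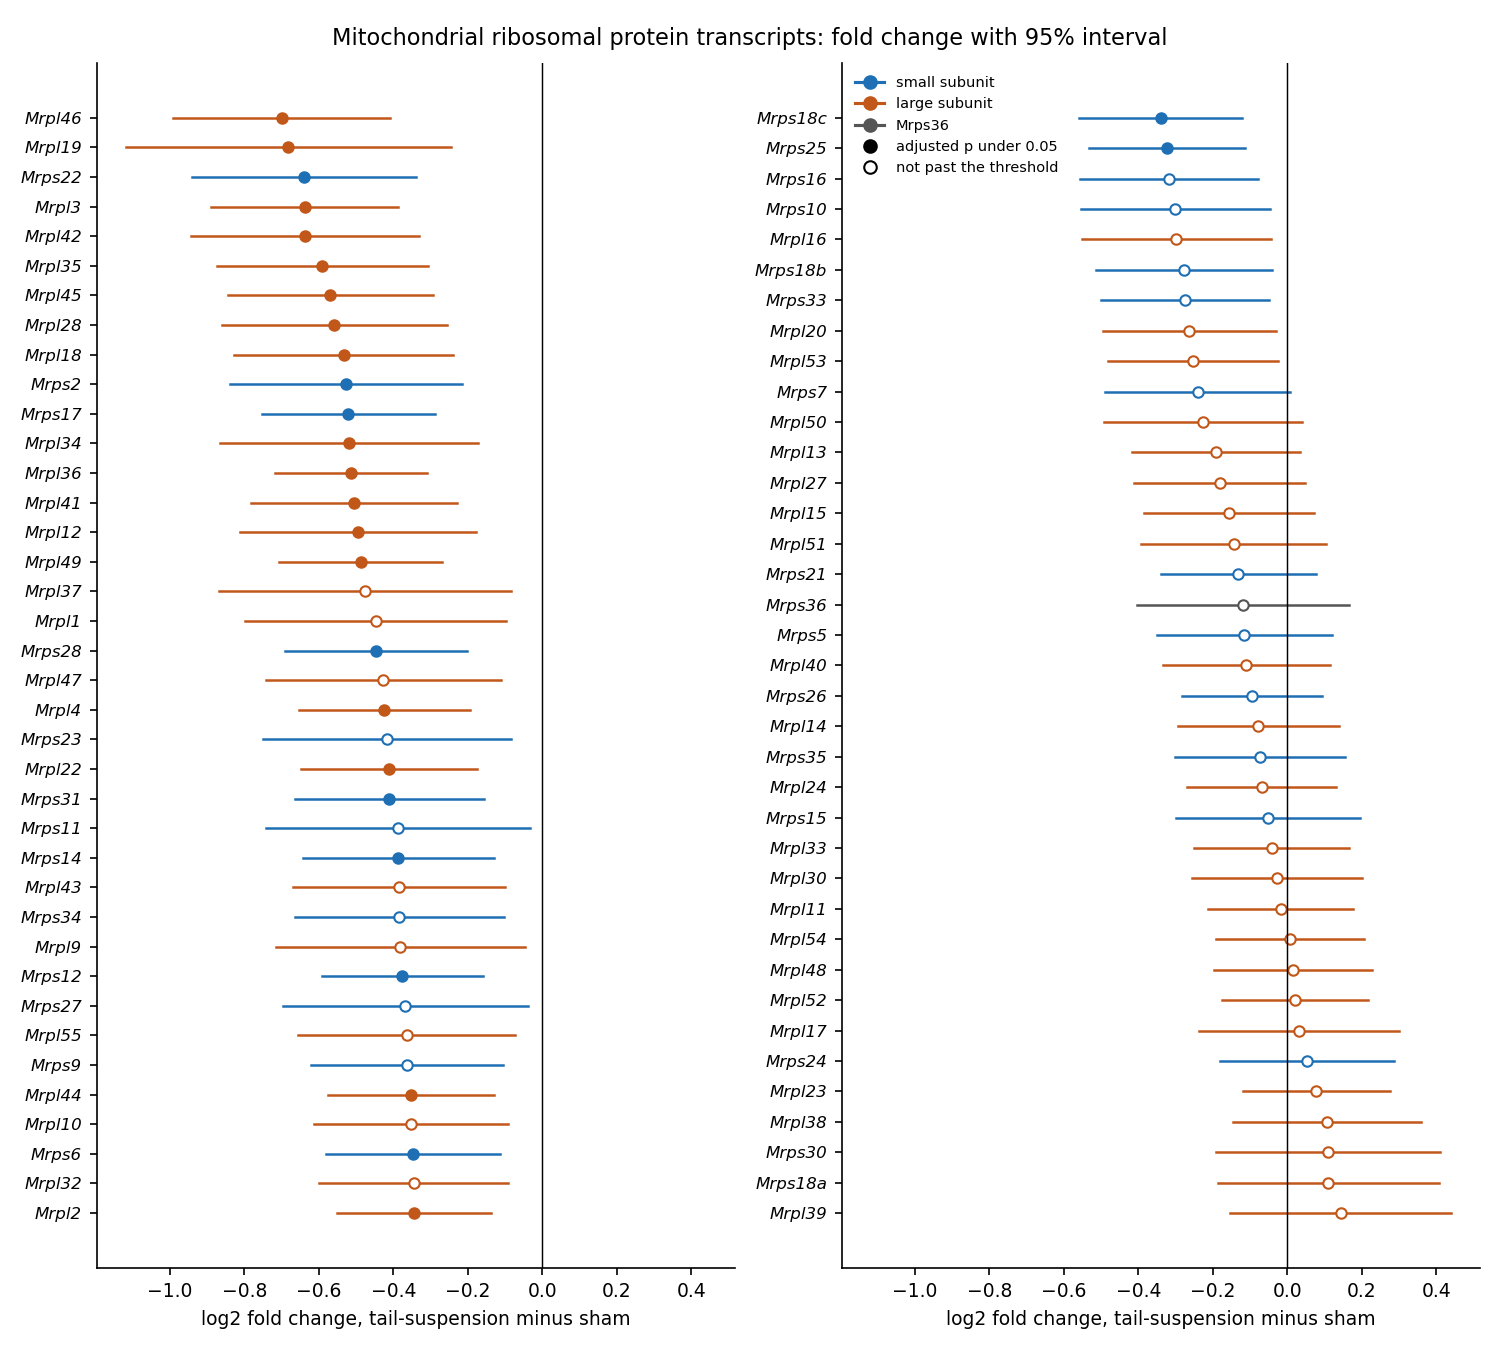
Log2 fold change (tail-suspension minus sham) of the 75 tested transcripts, ordered by value, with 95% intervals from the limma fit and 3 arrays a group. Filled points passed the adjusted threshold, and all 27 of them lie below 0, between -0.70 (Mrpl46) and -0.32 (Mrps25).

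The probes that carried several of the larger falls are shown so that the measured stretch of each transcript can be seen. They are the 60-base array probes for the genes with the first, the second and the eighth largest fall, and the second probe of Mrps2, at which the fall was larger than at its brightest probe. Positions are on mm9, as the array files give them.
Mrpl46, chr7:85925385-85925444, minus strand: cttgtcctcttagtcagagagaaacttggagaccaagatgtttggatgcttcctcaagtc
Mrpl19, chr6:81911970-81912029, minus strand: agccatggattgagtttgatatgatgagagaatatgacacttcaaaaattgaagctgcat
Mrpl28, chr17:26261526-26261585, plus strand: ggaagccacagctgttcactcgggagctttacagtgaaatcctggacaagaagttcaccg
Mrps2, chr2:28325206-28325265, plus strand: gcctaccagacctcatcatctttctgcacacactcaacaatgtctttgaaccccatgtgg

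Mrpl46, a mitochondria-specific protein of the central protuberance of the large subunit, had the largest fall. Its level, as a log2 value above or below that array's 75th percentile, was 3.64, 3.63 and 3.35 in sham and 2.99, 2.75 and 2.78 in tail-suspension. All 3 tail-suspension values lay below all 3 sham values, and limma gave a log2 fold change of -0.70 ± 0.12 (standard error) with an adjusted p of 0.0135. Mrpl19, a large subunit protein with a bacterial counterpart, had levels of 1.90, 2.11 and 1.72 in sham and 1.54, 0.90 and 1.23 in tail-suspension. The groups did not overlap, but tail-suspension replicate 2 was the lowest by a wide margin, and the fall of 0.68 had a standard error of 0.18 (adjusted p = 0.0441 by limma). For Mrpl46 an exact two-sided permutation test gave p = 0.1, which is the smallest value that 3 against 3 arrays allow.

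Mrpl3 lies close to the peptidyl transferase centre, where peptide bonds form, and its loss of function causes cardiomyopathy in people. Its level was 5.35, 5.39 and 5.12 in sham and 4.64, 4.73 and 4.58 in tail-suspension. The groups were well apart, and limma gave a log2 fold change of -0.64 ± 0.11 (standard error) with an adjusted p of 0.0119. Of the 4 proteins placed around this centre, Mrpl2, Mrpl3 and Mrpl4 were lower past the threshold and Mrpl16 had a log2 fold change of -0.30 (adjusted p = 0.0908 by limma). The median of the 4 was -0.38.

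Mrps22, a mitochondria-specific protein of the small subunit also linked to cardiomyopathy, had levels of 2.77, 2.84 and 2.59 in sham and 2.24, 1.88 and 2.16 in tail-suspension. No value was shared between the groups, and limma gave a log2 fold change of -0.64 ± 0.13 (standard error) with an adjusted p of 0.0195. Mrps14, a small subunit protein with a bacterial counterpart and also a gene of this disease group, fell by 0.39, from 3.66, 3.55 and 3.37 in sham to 3.22, 3.05 and 3.14 (adjusted p = 0.0481 by limma). Mrpl44, which sits near the polypeptide exit and has likewise been linked to cardiomyopathy, fell by 0.35 on the log2 scale. Its sham levels of 3.74, 3.78 and 3.56 lay above tail-suspension levels of 3.31, 3.36 and 3.34 (adjusted p = 0.0425 by limma).

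The remaining members among the 12 largest falls were Mrpl42, Mrpl35, Mrpl45, Mrpl28, Mrpl18, Mrps2, Mrps17 and Mrpl34, with log2 fold changes between -0.64 and -0.52. Mrpl45, which helps to hold the ribosome at the inner membrane, fell by 0.57, from 4.71 ± 0.08 (SD, n = 3) to 4.14 ± 0.18 (SD, n = 3). Mrpl18, which contacts the RNA of the central protuberance, fell by 0.53, from 4.95 ± 0.13 (SD, n = 3) to 4.41 ± 0.17 (SD, n = 3). In each of these 8 genes the 3 tail-suspension arrays lay below the 3 sham arrays, as held for 22.9% of all names. These 8, like the other called genes described here, had passed the threshold, so the separation adds no support.

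Mrpl12, the stalk protein that recruits translation factors, had levels of 6.67, 6.74 and 6.55 in sham and 6.38, 5.93 and 6.17 in tail-suspension. The groups did not overlap, and the fall was 0.49 on the log2 scale (adjusted p = 0.0439 by limma). It was the 1 of 5 proteins of the stalk and its base that passed the threshold. Mrpl11, which anchors the stalk, had a log2 fold change of -0.02 with a 95% interval from -0.21 to 0.18.

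Mrps12, a protein of the decoding centre, had levels of 5.62, 5.57 and 5.42 in sham and 5.19, 5.17 and 5.13 in tail-suspension. Every tail-suspension value was lower, with a fall of 0.38 (adjusted p = 0.0334 by limma). Mrps5, a neighbour along the mRNA channel, had a log2 fold change of -0.12 with a 95% interval from -0.35 to 0.12, and its groups overlapped.

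The homologues of bacterial S18 differed in their values. Mrps18c fell by 0.34 (adjusted p = 0.0448 by limma), Mrps18b had a log2 fold change of -0.28 (adjusted p = 0.0916) and Mrps18a one of 0.11 (adjusted p = 0.551). Mrps18a and Mrps30 bear small subunit names but are found in the large subunit, and were counted there. Mrps30 had levels of 3.99, 3.95 and 3.78 in sham and 3.84, 4.23 and 3.98 in tail-suspension, which overlap. Its log2 fold change was 0.11 and turned to -0.07 with the slide row as a blocking term. Mrps36, now placed in the oxoglutarate dehydrogenase complex and counted in neither subunit, had a log2 fold change of -0.12 and overlapping groups.

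Both subunits had nearly the same median. Of 26 small subunit transcripts 10 were lower and the median was -0.34, and of 48 large subunit transcripts 17 were lower with a median of -0.34. Proteins with a bacterial counterpart had 18 of 47 lower (median -0.34), and those found only in mitochondria had 9 of 27 lower (median -0.32). Within the large subunit, 2 of 8 central protuberance proteins and 3 of 8 proteins around the polypeptide exit were lower. These groups were not tested against each other. The highest value of all was 0.14 for Mrpl39, a protein near the exit, whose tail-suspension levels of 4.81, 4.51 and 4.85 overlapped sham levels of 4.69, 4.59 and 4.46.

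**Figure D2:**
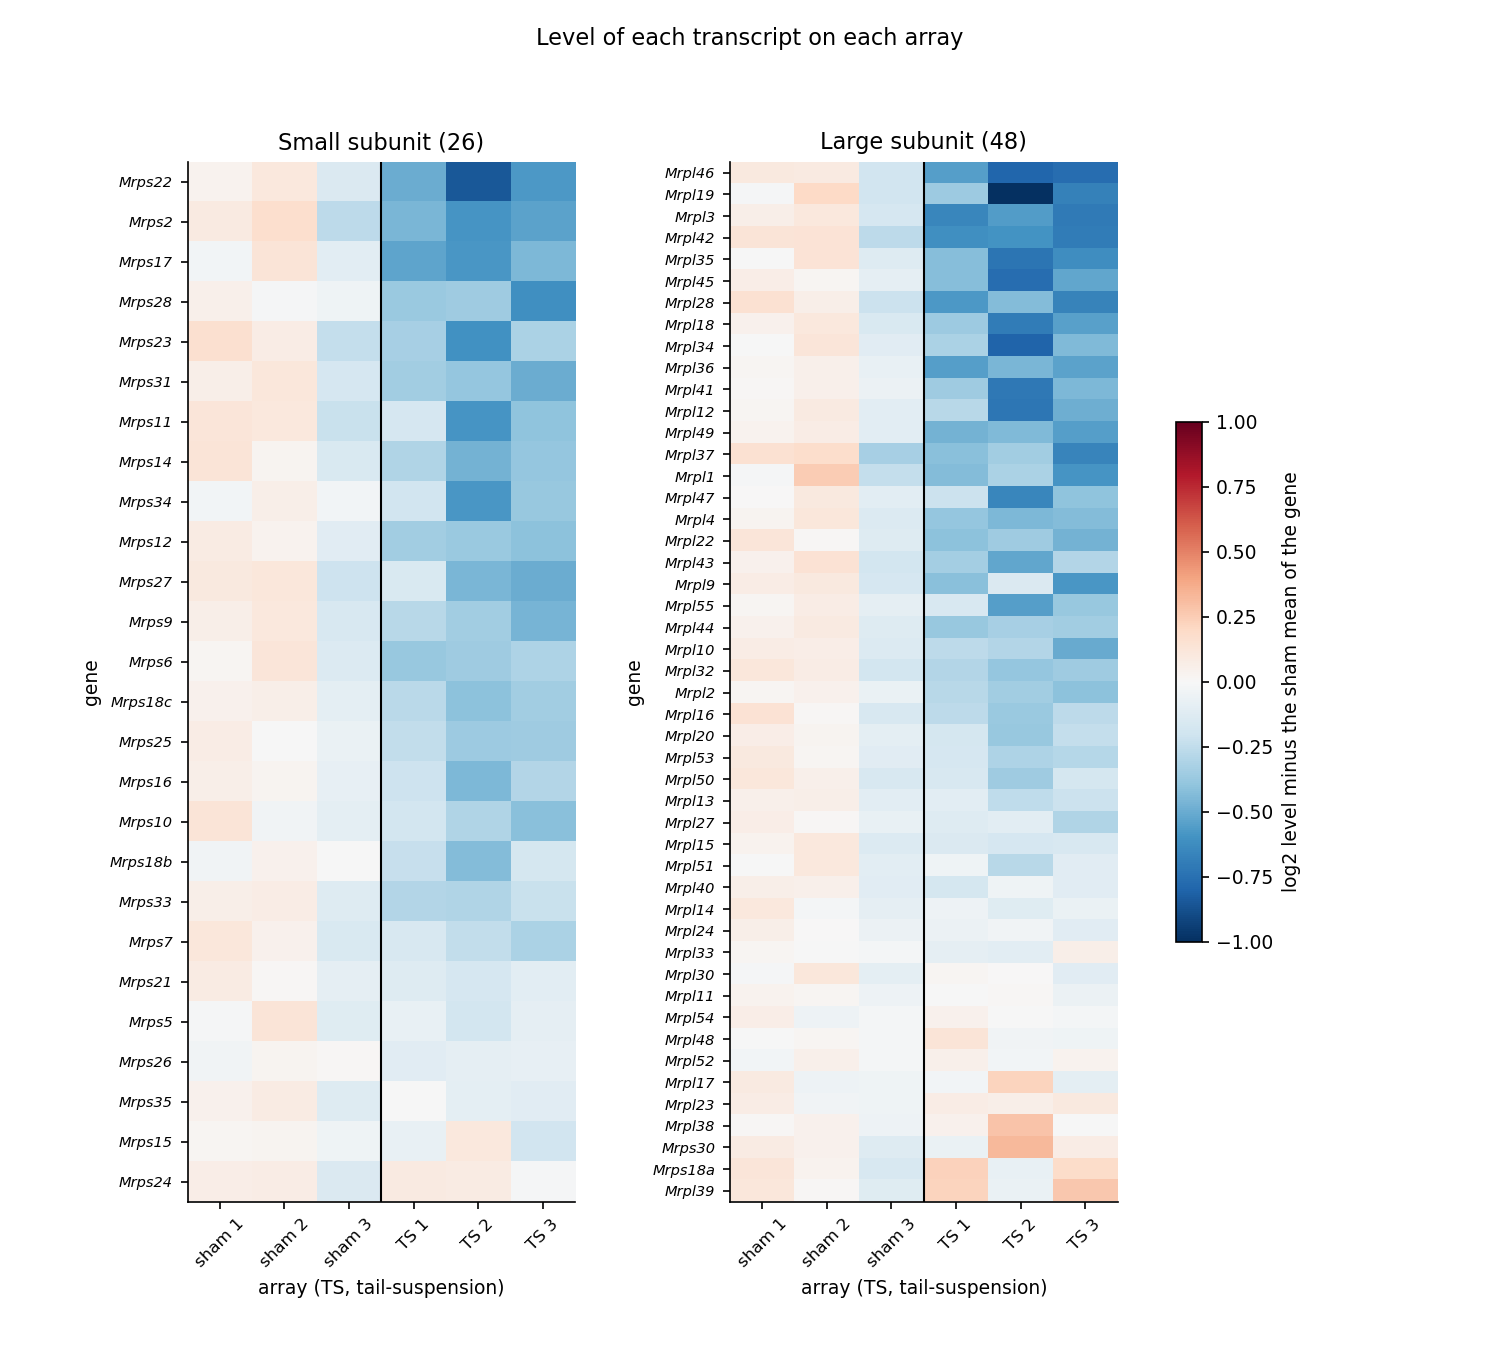
Log2 level of each small subunit (left) and large subunit (right) transcript on each array, minus the mean of the 3 sham arrays for that gene, with genes in rows ordered by fold change and colours ending at -1 and 1. Most rows are blue on all 3 tail-suspension arrays, sham 3 is paler blue in nearly every row, and the last rows of the large subunit turn towards red.

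At 49 of the 75 genes every tail-suspension array was below every sham array, and at 0 every one was above, against 22.9% and 21.5% of all names tested. The arrays of a group were not alike. The median of the 75 genes, relative to the sham mean of each gene, was 0.06, 0.06 and -0.12 for the sham hearts, against -0.23, -0.35 and -0.35 after tail-suspension. Sham replicate 3 was the lowest of the sham arrays at 69 of the 75 genes and lay towards the tail-suspension arrays. Without it, 26 members passed the threshold and the median was -0.39.

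Among genes with more than 1 probe, a second stretch of the same transcript gave another reading of the same RNA. For 23 genes at least 2 probes were tested, and in 22 of them all probes had the same sign. Mrps25 was the exception, with -0.32 (adjusted p = 0.0453 by limma) at its brightest probe and 0.27 (adjusted p = 0.173) at a probe far downstream in the transcript. All probes were lower past the threshold for Mrpl49, Mrps14, Mrps17 and Mrps2. At the second probes of Mrps2 and Mrps14 the log2 fold changes were -0.90 (standard error 0.21) and -0.77 (standard error 0.16).

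**Figure D3:**
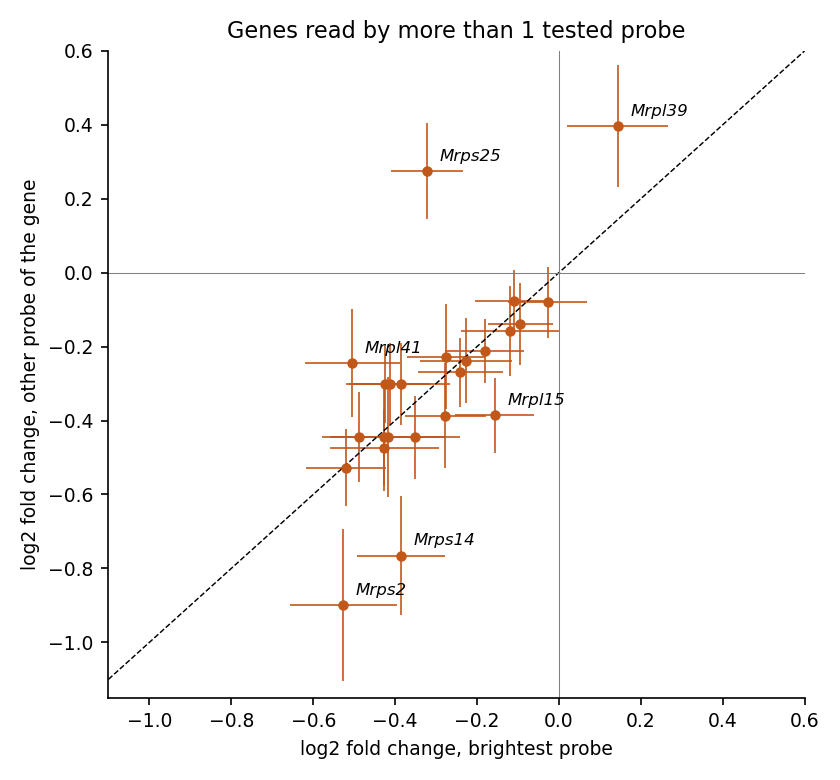
Log2 fold change at the brightest probe (horizontal) and at each other tested probe of the same gene (vertical) for the 23 genes with at least 2 tested probes, with standard errors as bars and the line of equal change dashed. All points other than that of Mrps25 have the same sign on both axes.

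The same contrast was read in the genes that work with this ribosome. Of 16 mitochondrial translation factors 6 were lower (37.5%, against 9.8% of all names) and 1 higher past the threshold, with a median of -0.37. The count lower was 2 without sham replicate 1, 1 without sham replicate 2 and 9 without sham replicate 3. It was 3 without tail-suspension replicate 1 and 2 without tail-suspension replicate 3. The elongation factor genes Tsfm (-0.56), Gfm1 (-0.50) and Tufm (-0.41) were lower, as were Taco1 (-0.83), an activator of translation of a cytochrome oxidase subunit, and Letm1 (-0.69), an inner membrane protein. The initiation factor gene Mtif2 was higher by 0.49. Of 21 genes that charge mitochondrial tRNAs, 5 were lower (23.8%) and 1 higher (median -0.24), with Qrsl1 (-0.78), an amidotransferase subunit, and Lars2 (-0.53), the leucyl-tRNA synthetase, among the lower ones. Kars, which serves the cytosol as well, was higher by 0.34. The count of 5 was 0 without sham replicate 1, sham replicate 2 or tail-suspension replicate 3, and 2 without tail-suspension replicate 1.

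Of 26 ribosome assembly and rRNA modification genes, 2 were lower and 0 higher, namely Ftsj2 (-0.80), an rRNA methyltransferase, and Gtpbp10 (-0.38), a GTPase of large subunit assembly. The 18 tRNA processing genes had 2 lower, Trmt61b (-0.74) and Nsun3 (-0.31), both tRNA methyltransferases. These shares of 7.69% and 11.1% lay near the 9.8% of all names. Both counts were 1 without sham replicate 1, sham replicate 2 or tail-suspension replicate 3. At an unadjusted p under 0.05, limma gave 12 of the 26 and 6 of the 18 lower, against 19.3% of all names, and 0 higher. The medians were -0.20 and -0.12, with 22 of the 26 and 12 of the 18 below 0. Of 7 mitochondrial ribosomal proteins with other gene names, 1 was lower, Ptcd3 (-0.58), a small subunit protein with RNA-binding repeats. The count of these was 0 without sham replicate 2 or tail-suspension replicate 3. Among 76 nuclear-encoded subunits of the respiratory chain and ATP synthase, 7 were lower and 0 higher with a median of -0.20. The share of 9.21% was near that of all names by this adjusted call. Yet 66 of the 76 values were below 0. At 51 of them every tail-suspension array was below every sham array, against 22.9% of all names. At an unadjusted p under 0.05, limma gave 27 lower and 0 higher, against 19.3% of all names lower. The methods' t-test called 42 before adjustment and 10 after it, counted without regard to direction. After adjustment it called 4.16% of all names lower and 4.49% higher. Its share of all names before adjustment was not taken. Cox7a1, the heart and muscle form of a cytochrome oxidase subunit, had the largest fall (-0.58). The limma count past the adjusted threshold was 22 with quantile normalization, 20 with the authors' log2 values and 4 with normexp. It was 2 without tail-suspension replicate 1, and 1 without sham replicate 1, sham replicate 2 or tail-suspension replicate 3.

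Transcripts made inside the mitochondrion gave a median of -0.14 over 12 probes. Past the adjusted threshold 0 changed by limma and 0 by the methods' t-test, and at an unadjusted p under 0.05 limma gave 3 lower and 1 higher while the methods' t-test gave 2 in all. Some of these probes, including those for COX2 and ATP8, are placed by the files on chromosome 1 rather than on the mitochondrial genome, so signal from a nuclear copy cannot be told apart. Among 18 regulators of mitochondrial transcription and biogenesis, 2 were lower (11.1%, against 9.8% of all names) and 1 was higher (5.56%, against 9.95%). These shares were near or below those of all names. The count lower was 1 without any one of sham replicates 1 and 2 and tail-suspension replicates 1 and 2, and 0 without tail-suspension replicate 3. Tfam, which packages mitochondrial DNA and starts its transcription, fell by 0.50, and Ppargc1b, a coactivator of mitochondrial genes, fell by 0.58. Myc, a transcription factor that also acts on ribosome genes, rose by 1.60. The median of these 18 was near 0 and changed sign between scalings. By contrast, the 82 cytosolic ribosomal protein names, which share the word ribosome but not the organelle, had 12 higher (14.6%, against 9.95% of all names) and 0 lower with a median of 0.21. Their count higher was 0 without sham replicate 1, sham replicate 2, tail-suspension replicate 1 or tail-suspension replicate 3. It was 3 without sham replicate 3, 8 with quantile normalization and 27 with normexp. Their median was above 0 in each of these fits.

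**Figure D4:**
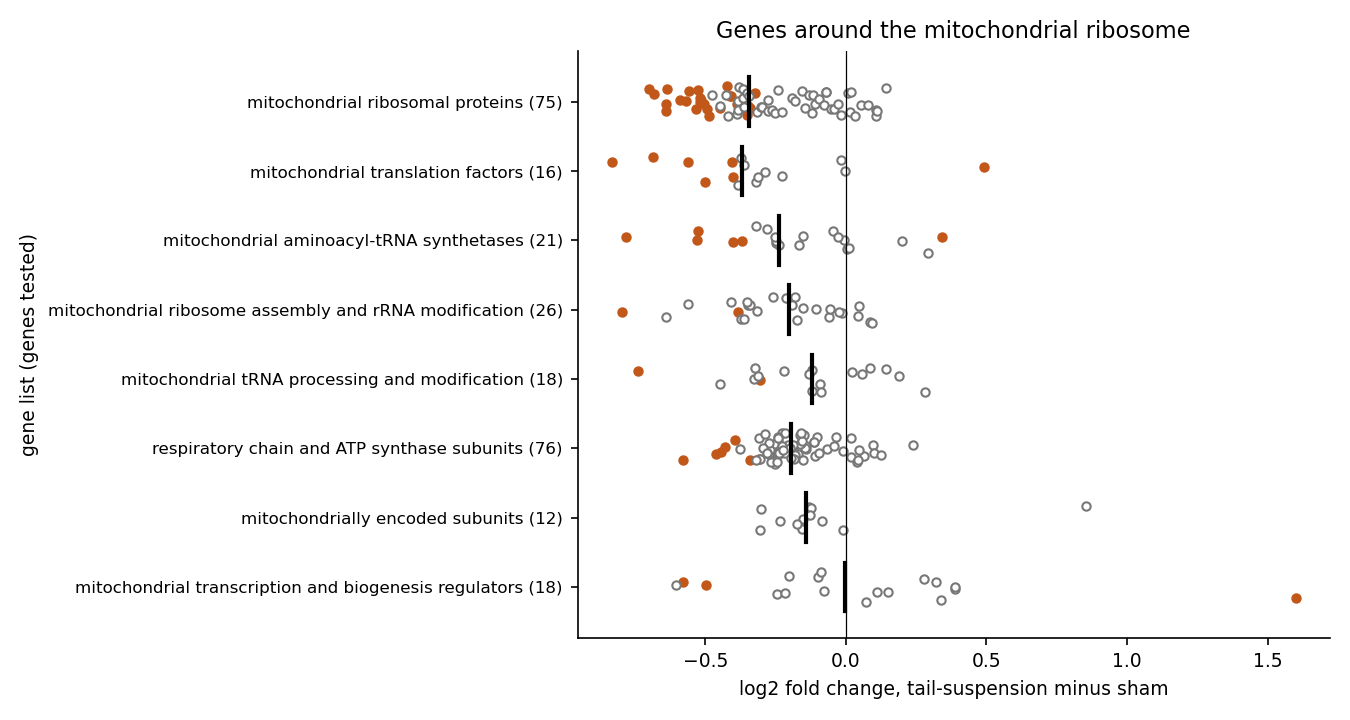
Log2 fold change of each tested gene (points) in the lists around the mitochondrial ribosome, with the number of genes in parentheses and the median as a black bar. Orange points passed the adjusted threshold, and the medians run from -0.37 for translation factors to near 0 for the regulators.

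**Figure D5:**
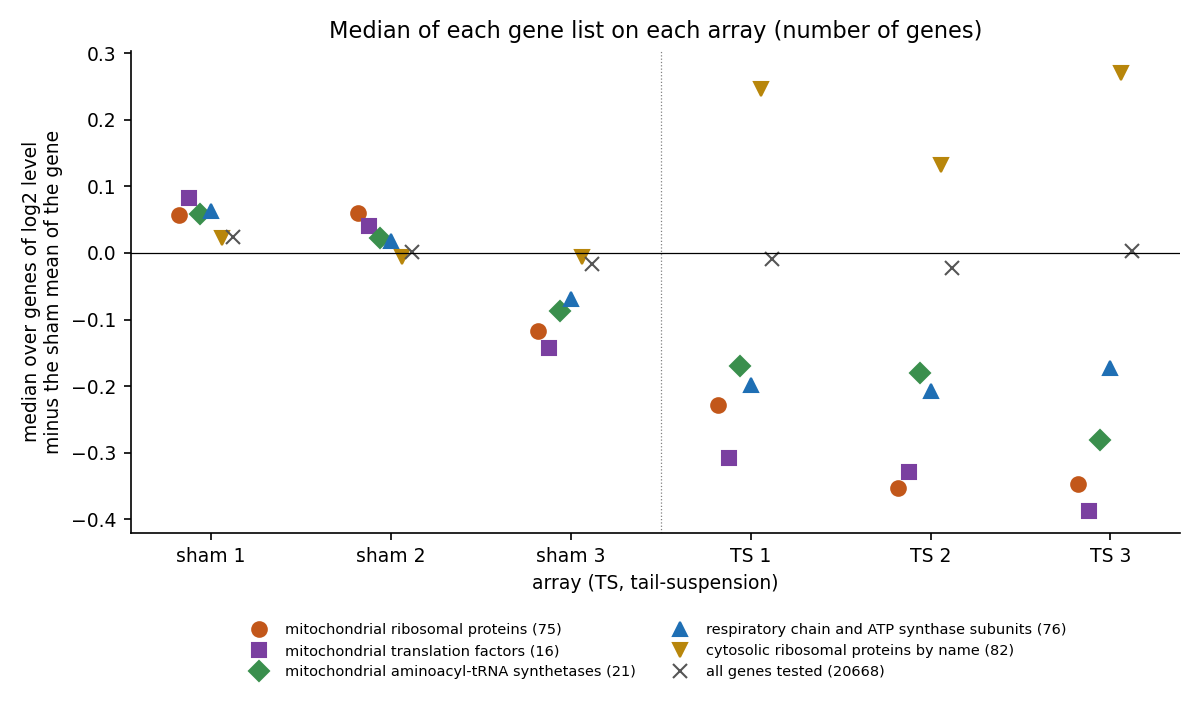
Median over genes of the log2 level minus the sham mean of each gene, for 6 gene lists on each of the 6 arrays. The mitochondrial ribosomal proteins lie at -0.23, -0.35 and -0.35 on the tail-suspension arrays, while the cytosolic ribosomal proteins lie above 0 on all 3.

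The sequence just upstream of the start was compared across members. Of the 76 genes, 67 had a promoter in the RefSeq table (GRCm38.p6), which covers 250 bases before to 50 after the start. The core letters bound by ETS factors, CCGGAAG on either strand, were in 35.8% of the 67 members and in 9.93% of 27025 genes. These 27025 were not limited to genes tested here, and the share over tested genes was not taken. Among members with a promoter, they were in 29.2% of those past the threshold and in 38.1% of those tested and not past it. Longer motifs were searched by the same rule. That of YY1 was in 5 members (7.46%, against 0.995% of all genes), and that of NRF1 in 3 (4.48%, against 1.07%). The YY1 motif was in 1 of 24 members past the threshold and in 4 of 42 tested and not past it. For NRF1 these were 0 of 24 and 3 of 42. As examples, 4 members that were lower past the threshold are printed with the ETS letters in capitals, in the 150 bases before the start.
Mrpl3, chr9:105053118-105053267, plus strand: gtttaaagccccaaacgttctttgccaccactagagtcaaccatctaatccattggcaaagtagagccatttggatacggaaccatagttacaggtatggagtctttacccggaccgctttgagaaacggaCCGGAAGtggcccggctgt
Mrps22, chr9:98601680-98601829, minus strand: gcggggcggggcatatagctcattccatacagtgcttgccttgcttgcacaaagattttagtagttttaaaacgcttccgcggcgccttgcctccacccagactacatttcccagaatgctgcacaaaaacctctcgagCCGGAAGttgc
Mrpl34, chr8:71464776-71464925, plus strand: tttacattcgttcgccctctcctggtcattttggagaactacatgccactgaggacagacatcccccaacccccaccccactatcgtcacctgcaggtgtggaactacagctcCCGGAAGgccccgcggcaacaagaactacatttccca
Mrpl22, chr11:58171514-58171663, plus strand: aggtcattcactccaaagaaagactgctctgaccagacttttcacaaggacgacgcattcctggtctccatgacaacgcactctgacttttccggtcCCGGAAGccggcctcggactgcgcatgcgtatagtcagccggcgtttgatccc

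A match is a description of these letters in this window and does not show binding. Mrpl46 and Mrps11, a small subunit gene, start 42 bases apart on chromosome 7 and run in opposite directions, so that the segment between them lies upstream of both. It is shown because both transcripts were below sham in their means, at -0.70 for Mrpl46 and at -0.39 for Mrps11 (adjusted p = 0.108 by limma). So were 65 of the 75 tested members, and the groups of Mrps11 overlapped. Shared control of the 2 genes was not tested.
Mrpl46 to Mrps11, chr7:78783090-78783130, plus strand: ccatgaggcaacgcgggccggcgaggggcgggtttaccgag

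The tissue label was checked against markers. All 10 cardiomyocyte markers were well above background on all 6 arrays, and their summed signal, in multiples of the 75th percentile of each array, ranged from 6501 to 7091 in sham and from 6061 to 6231 in tail-suspension. Of the 10, Actc1, the cardiac actin gene, was lower, at -0.33 (adjusted p = 0.0378 by limma), about the size of the members' median, and the other 9 did not pass. The summed signal of 7 endothelial markers was also lower, from 180 to 190 in sham against 140 to 154. Most of it came from Egfl7 (-0.31, adjusted p = 0.0448 by limma). Of the 7, Kdr, Tie1, Emcn and Egfl7 were lower past the threshold, 4 in all, against 9.8% of all names. The value of Pecam1 was above 0 (0.18, adjusted p = 0.282 by limma), and the other 6 were below. The erythroid sum ran from 498 to 817 in sham and from 124 to 397 in tail-suspension, with 1 of 4 tested markers lower.

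Of 6 tested neutrophil markers, 3 were higher, namely S100a8 at 27.8-fold, S100a9 at 24.5-fold, and Ltf, for which no sham array gave a signal well above background. Their summed signal, 171 to 200 in sham and 247 to 277 in tail-suspension, does not show this, because most of it came from Csf3r (0.29, adjusted p = 0.0868 by limma). Elane, the 1 of the 6 with a value below 0, was at -0.30 (adjusted p = 0.0628 by limma). Its tail-suspension arrays all lay below its sham arrays. Of 8 fibroblast markers 1 was lower, the collagen gene Col3a1 (-1.88, adjusted p = 0.0172 by limma), and 0 were higher. Of the 8 values 6 were below 0, and 2 were above, Dcn (0.34, adjusted p = 0.0689 by limma) and Pdgfra (0.19). The fibroblast sums, 329 to 350 in sham and 321 to 417 in tail-suspension, came mostly from Dcn. Of 5 tested macrophage markers 1 was higher, Cd163, for which again no sham array was well above background, with sums of 30.4 to 40.6 and 33.2 to 52.7. The lymphocyte marker Cd79a was lower, at -0.87 (adjusted p = 0.0182 by limma). Of 4 smooth muscle markers 0 passed by limma and 1 had an unadjusted p under 0.05, with sums of 40.9 to 64.6 and 53.4 to 82.9, and no adipocyte marker was well above background on all arrays of a group. Fewer cells of a type and less RNA per cell cannot be told apart in whole tissue, and the part of these marker differences in the members' values was not tested.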

How the data were processed

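Cardiac RNA of 3 sham and 3 tail-suspended mice was measured on 1-colour Agilent arrays on 1 slide, read in 1 scan. The authors deposited each array's spot intensity from Agilent Feature Extraction 10.7.1.1, including a background-corrected processed intensity. They also deposited log2 values of the same arrays, whose columns share 1 median of 4.32. Their normalization is not given in the sources used here.

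In R 4.3.3, outlier-flagged spots were dropped, spots of a probe were averaged as log2 processed intensity, and the 75th percentile over probes was subtracted per array, which lay between 259 and 326. Between 50.9% and 53.4% of probes were well above background and 0 spots were saturated. Probes well above background (at least 50% of spots) on all arrays of at least 1 group were tested, 28032 in all, by limma 3.58.1 with no covariate (functions lmFit and eBayes) and Benjamini-Hochberg adjustment. Gene names are those of the array design and include clones and transcripts named by accession. The replicates are labelled by number only and were taken as separate mice, and the number of arrays limits the precision.

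Members and gene lists were chosen with earlier results of these data known. Named are the 12 largest changes past the threshold in each direction, members not well above background or with probes called in opposite directions, 12 members with known roles, and up to 4 genes in each direction of each other list. Mrpl2, Mrpl4, Mrpl11, Mrpl16, Mrpl22, Mrpl39, Mrpl49, Mrps11, Mrps25 and Tufm were named after their values were seen. Alternatives covered background correction, scaling, filters, the variance model, blocks, the probe rule and each array left out. On simulated data, in which few of the probes were changed, the fit recovered the effects it was given. It had little power there at the size of the members' changes. In the real data 9.8% of names passed as lower and 9.95% as higher. Power after adjustment depends on that share, so the simulated power need not hold for these data. When the test data held changes of the members' sizes alone, none was called. Larger changes were added to the test data after that outcome was seen, and then some as large as the largest member change were called and none of the smaller ones. The replicate numbers did not pair the samples. The count and sum of the lymphocyte marker list are not reported here.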

Additional observations from a re-analysis of the deposited data

How the results depend on the processing

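In every alternative 0 members were higher, and between 61 and 67 members had a log2 fold change below 0. The count of members lower was 27 as reported (9.8% of all names) and 16 with normexp background correction (9.48%). It was 2 of 76 with no filter on dim probes (1.68%) and 41 with an intensity trend and robust eBayes (12.5%). The methods' t-test gave 7 after adjustment (4.16%) and 42 before it, and a 1.5-fold minimum left 6. With the replicate block the count was 7 (5.27% of all names). The deviations of same-numbered arrays correlated at -0.02, -0.02 and 0.05, so the numbers were not taken to pair them. With the slide row as a blocking term, and among the arrays of row 1 alone, it was 0, the median over the members moved from -0.34 to -0.2279, and Mrps30 turned to -0.0691. With each array left out, the count ran from 0 to 26 and the median from -0.39 to -0.30, and 0 of the 27 calls held in all 6 of these fits. Quantile normalization and the authors' log2 values each gave 36 lower, including all 27. Of the values of single named genes under the alternatives, 391 kept their direction and side of the threshold, 246 lost the threshold, 1 gained it and 2 reversed. Where a fit gave fewer calls, the cause was not tested. A block for the slide could not be fitted with 1 slide and was not run. The share of probes above background limits what can be said of Mrpl21.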
